A study of Drosophila melanogaster with 9 samples.

Results

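The comparison described here set eye-antennal discs at mid L3 (96h AEL, hours after egg laying) against discs at late L2 (72h AEL), 24 hours earlier. All libraries that the labels give to these stages were used, 3 at each stage (replicates A, B and C), which is 6 of the 9 libraries of the study. The other 3 are from 120h AEL. RNA was sequenced from dissected discs of wild type OregonR larvae kept at 25 °C under a light and dark cycle. The libraries of 96h AEL pooled 80 to 90 discs each, from female larvae only, and those of 72h AEL pooled 120 to 130 discs each, from male and female larvae. Sex and stage therefore changed together and cannot be told apart, and each library is the mean of a pool, not of 1 animal. Reads were counted on the longest coding sequence (CDS) of each gene. Levels are given in CPM, the counts of a gene scaled to a common library total with TMM factors over the 6 libraries, always in the order of replicates A, B and C.

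The eye-antennal disc, an epithelial sac of the larva, gives rise to the compound eye, the ocelli, the antenna, the maxillary palp and most of the head capsule. During the second instar it is patterned into an eye and an antennal field. In the third instar the morphogenetic furrow starts at the posterior margin of the eye field and moves anteriorly, and behind it cells leave the progenitor state and are recruited one after another as photoreceptors and cone cells. The retinal determination genes encode transcription factors that specify the eye field. Hedgehog and Dpp drive the furrow, Notch and the proneural factor Atonal select the founder photoreceptor R8, and EGFR signalling recruits the later cells, while Wingless holds the furrow back at the dorsal and ventral margins.

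The 96h AEL libraries held 37305763, 28206164 and 22786664 counts, the 72h AEL libraries 31452584, 35818587 and 27681462. A count of 3, taken as the detection floor of a library, corresponded to 0.0685 to 0.121 CPM, and counting alone gave an error of 4.78% to 6.35% at 10 CPM, biological variation not included. Replicates A and B of 72h AEL differed by no more than sampling noise (a chi-square of 1.02 per gene, from 10235 genes that had 20 counts or more, against 101 to 488 for the other pairs within a stage), and were summed and counted as 1 sample. The tests thus compared 3 samples of 96h AEL with 2 samples of 72h AEL. The labels do not say that the libraries came from separate broods, so p-values measure the spread between these libraries, which may be partly technical.

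The labelled tissue was checked with marker genes. The summed level of 5 eye field genes was 1117, 1457 and 993 CPM at 96h AEL and 579, 576 and 557 CPM at 72h AEL, and that of 5 antennal genes was 113, 98.2 and 135 CPM at 96h AEL and 50.5, 48.7 and 32.6 CPM at 72h AEL. Markers of other tissues were also present and differed between libraries of 1 stage. The sum of 12 midgut genes was 0.777, 79.6 and 1080 CPM at 96h AEL and 34998, 34680 and 1152 CPM at 72h AEL, so replicates A and B of 72h AEL stood apart from all other libraries. Salivary gland genes (9 listed, 4 of them under 1 CPM in every library) summed to 454, 478 and 838 CPM at 96h AEL and 6500, 6451 and 2264 CPM at 72h AEL. The 12 muscle genes summed to 8583, 3972 and 2326 CPM at 96h AEL and 15411, 15319 and 19778 CPM at 72h AEL, and the 9 hemocyte genes to 106, 227 and 521 CPM at 96h AEL and 446, 449 and 1561 CPM at 72h AEL. The 9 fat body genes summed to 1976, 2256 and 6332 CPM at 96h AEL, highest in replicate C, and to 5578 to 5845 CPM at 72h AEL. The part of these tissues in the results below was not tested, and every count was also computed with 72h AEL replicate C alone as the earlier stage. In pooled tissue, fewer cells of a type and less RNA per cell cannot be told apart.

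Of 13676 genes in the count table, 8845 passed the filter on low counts and were tested. The filter looked at the highest sample, so a gene low at 72h AEL was tested only if it was high enough at 96h AEL, and the reverse. At an adjusted p-value under 0.05, 3747 genes (42.4% of those tested) differed between the stages, 1712 of them higher at 96h AEL (19.4%) and 2035 lower (23%). An absolute log2 fold change over 1 was reached by 2622 of these genes (29.6%). The samples of the stages did not overlap for 6360 genes (71.9%). The median log2 fold change of all tested genes was -0.04. Scaling by library size alone moved this median to 0.46 and the calls to 4446 (50.5%), 3192 higher (36.2%) and 1254 lower (14.2%), so directions below are relative to the TMM scale. The number of calls rested on single libraries. It fell to 645 (130 higher and 515 lower) without 96h AEL replicate B and to 1655 (553 higher and 1102 lower) without 96h AEL replicate A, and with 72h AEL replicate C alone it was 1115 (298 higher and 817 lower). Of the 3747 calls, 629 held with each library left out in turn, and 601 of these held also with replicate C alone and after the correction for CDS length described next (112 higher and 489 lower). Such genes are called stable in the following. Leaving out replicate A or B of 72h AEL could change little, since the other, alike within sampling noise, stayed in. Of the calls, 3688 held without A and 3701 without B. Where 72h AEL replicate C was left out or used alone, that stage had 1 sample (n = 1), so the spread came from the 96h AEL libraries alone and the lone sample was assumed to vary like them.

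The fold change between the stages ran with the length of the CDS. Tested genes were divided into 6 classes of equal size by CDS length. In the longest class (2838 to 68850 bp) the median log2 fold change was 0.88, with 769 genes higher and 80 lower at 96h AEL. In the shortest class (36 to 600 bp) it was -0.70, with 46 genes higher and 559 lower. The classes between them followed in order, with medians of -0.43, -0.14, 0.00 and 0.39. The trend was also seen within stages. Spearman's rho between CDS length and a library's log2 ratio to the mean of the 6 libraries was 0.61, 0.48 and 0.21 in the libraries of 96h AEL and -0.52, -0.52 and -0.32 in those of 72h AEL. It is given as a description, since genes are not independent replicates. The longest class took 20.7%, 17.1% and 13.6% of the counts at 96h AEL, against 6.54%, 6.55% and 9.80% at 72h AEL. Replicate C was thus the library nearest to the other stage in both stages. The source of this trend was not tested.

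**Figure D1:**
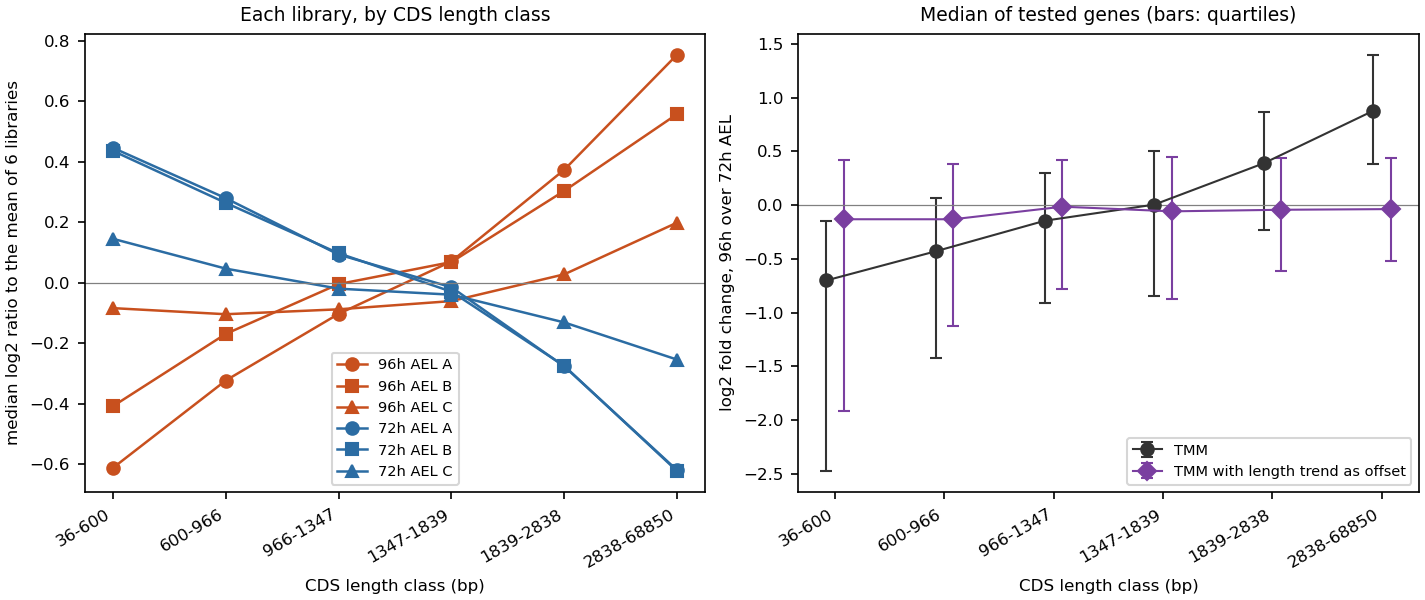
CDS length and level. Left, the median log2 ratio of each library to the mean of the 6 libraries (vertical axis) in 6 classes of CDS length in bp (horizontal axis), with 96h AEL in orange and 72h AEL in blue. Right, the median log2 fold change of 96h over 72h AEL per class with bars for the quartiles, for TMM scaling and for TMM with the length trend of each library removed: the medians run from -0.70 to 0.88 with TMM and lie between -0.13 and -0.01 with the trend removed.

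A second fit removed the smooth trend on CDS length from each library. It is called length-corrected here and is given beside each result that it changed. It called 3654 genes (41.3%), 1389 higher (15.7%) and 2265 lower (25.6%), and 2780 genes (31.4%) were called in the same direction in both fits, 988 higher (11.2%) and 1792 lower (20.3%). Of the genes higher at 96h AEL with TMM, 718 lost the call and 6 were called lower. In turn, 401 genes with no call became higher and 467 became lower, and 243 genes lost the call as lower. In the longest class the corrected calls were 253 higher and 323 lower, and in the shortest class 219 higher and 424 lower. A length correction also takes away any true difference between long and short genes as classes, so the fits are alternatives and neither was taken as the right one.

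Genes that moved against the length trend were named for both ends. In the shortest class, the largest rises called in both fits and at 10 CPM or more were those of *twit*, *Obp56e*, *E(spl)mdelta-HLH*, *E(spl)malpha-BFM* and *CG42245*. The gene *twit*, with a CDS of 501 bp, had 36.7, 60.5 and 73.6 CPM at 96h AEL, against 2.42, 3.27 and 1.45 CPM at 72h AEL (log2 fold change 4.65 ± 0.52, adjusted p = 0.0059, length-corrected 5.14). All 96h AEL libraries lay above all 72h AEL libraries. Without 96h AEL replicates A or B the call of *CG42245* was lost at log2 fold changes of 1.95 and 2.44, and that of *Obp56e*, an odorant-binding protein gene, was lost without each 96h AEL replicate. In the longest class, the largest falls were those of *CG14120*, *Muc91C*, *CG13492*, *Npc1b* and *CG31233*. *Muc91C*, a mucin-related gene with a CDS of 2853 bp, had 0.206, 0.279 and 0.754 CPM at 96h AEL, against 407, 403 and 321 CPM at 72h AEL (-9.86 ± 0.69, adjusted p = 0.002, length-corrected -10.50). The other 4 were high in replicates A and B of 72h AEL only. *CG14120*, for example, had 0.0457, 0.031 and 0.0718 CPM at 96h AEL, against 97.3, 99.4 and 0.519 CPM at 72h AEL, and these 4 calls were lost when any 1 of the 96h AEL libraries was left out. The same libraries, A and B of 72h AEL, carried the midgut markers.

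Retinal determination genes were higher at 96h AEL as a group, with fold changes that differed widely between members. Of 14 listed genes, all tested, 9 were higher, none was lower and 5 did not pass the test, with a median log2 fold change of 1.17 (length-corrected 1.10, again 9 higher, 8 of them the same genes), beside -0.04 for all tested genes. For this and every other list below, the shares of all tested genes were 19.4% higher and 23% lower (length-corrected 15.7% and 25.6%). The share higher in the longest length class was 52.1% with TMM and 17.2% after the correction. *dac*, which encodes the Dachshund co-factor at the downstream end of the network, had 460.3, 548 and 360.4 CPM at 96h AEL, against 45.8, 46.9 and 65.5 CPM at 72h AEL (2.96 ± 0.29, adjusted p = 0.0044, length-corrected 2.22). The related genes *dan* and *danr*, which code for nuclear proteins of the eye and the distal antenna, rose more. *dan* had 91.3, 117 and 94.6 CPM at 96h AEL, against 6.81, 5.84 and 8.05 CPM at 72h AEL (3.75 ± 0.22, adjusted p = 0.0016) and *danr* had 65.2, 91.6 and 121 CPM at 96h AEL, against 6.89, 7.25 and 4.97 CPM at 72h AEL (3.89 ± 0.40, adjusted p = 0.0048). For each of these genes every 96h AEL library lay above every 72h AEL library.

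The Pax6 gene *ey*, at the top of the network, had 250.3, 319 and 192 CPM at 96h AEL, against 167, 164 and 154 CPM at 72h AEL, which did not overlap between the stages, yet the difference did not pass the test (0.60 ± 0.24, adjusted p = 0.0917) and was -0.02 after the length correction. Its paralog *toy* rose, with 265, 313 and 245 CPM at 96h AEL, against 102, 104 and 139 CPM at 72h AEL (1.11 ± 0.22, adjusted p = 0.0196). *eya*, the phosphatase and co-activator that binds the homeodomain protein Sine oculis, had 375, 481 and 319.7 CPM at 96h AEL, against 129, 126 and 105 CPM at 72h AEL (1.69 ± 0.24, adjusted p = 0.0101, length-corrected 1.22). *so* itself had 84.8, 115 and 86.2 CPM at 96h AEL, against 60.6, 59.3 and 63.3 CPM at 72h AEL and passed the test only after the length correction (0.57, adjusted p = 0.0584, corrected 0.65, adjusted p = 0.0341). *Optix*, a homeobox gene related to *so*, had 142, 229.9 and 150.1 CPM at 96h AEL and 120.2, 122 and 96.2 CPM at 72h AEL, with no call in either fit (adjusted p = 0.113), and *eyg* and *toe* overlapped between the stages. The genes *hth* and *exd*, whose homeodomain proteins act together in progenitor cells ahead of the furrow, also rose, by 1.76 and 1.24 on the log2 scale (adjusted p = 0.0258 and 0.0363), and so did *tio* (1.88, adjusted p = 0.0249) and *tsh* (1.06, adjusted p = 0.0329), of which *tsh* lost the call after the length correction (0.41). The stable calls were *dac*, *dan* and *danr*. Without 96h AEL replicate A 4 of the 9 calls held, without replicate B 3, and with 72h AEL replicate C alone 5. The calls lost when a library was left out had log2 fold changes of 0.96 to 1.82.

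**Figure D2:**
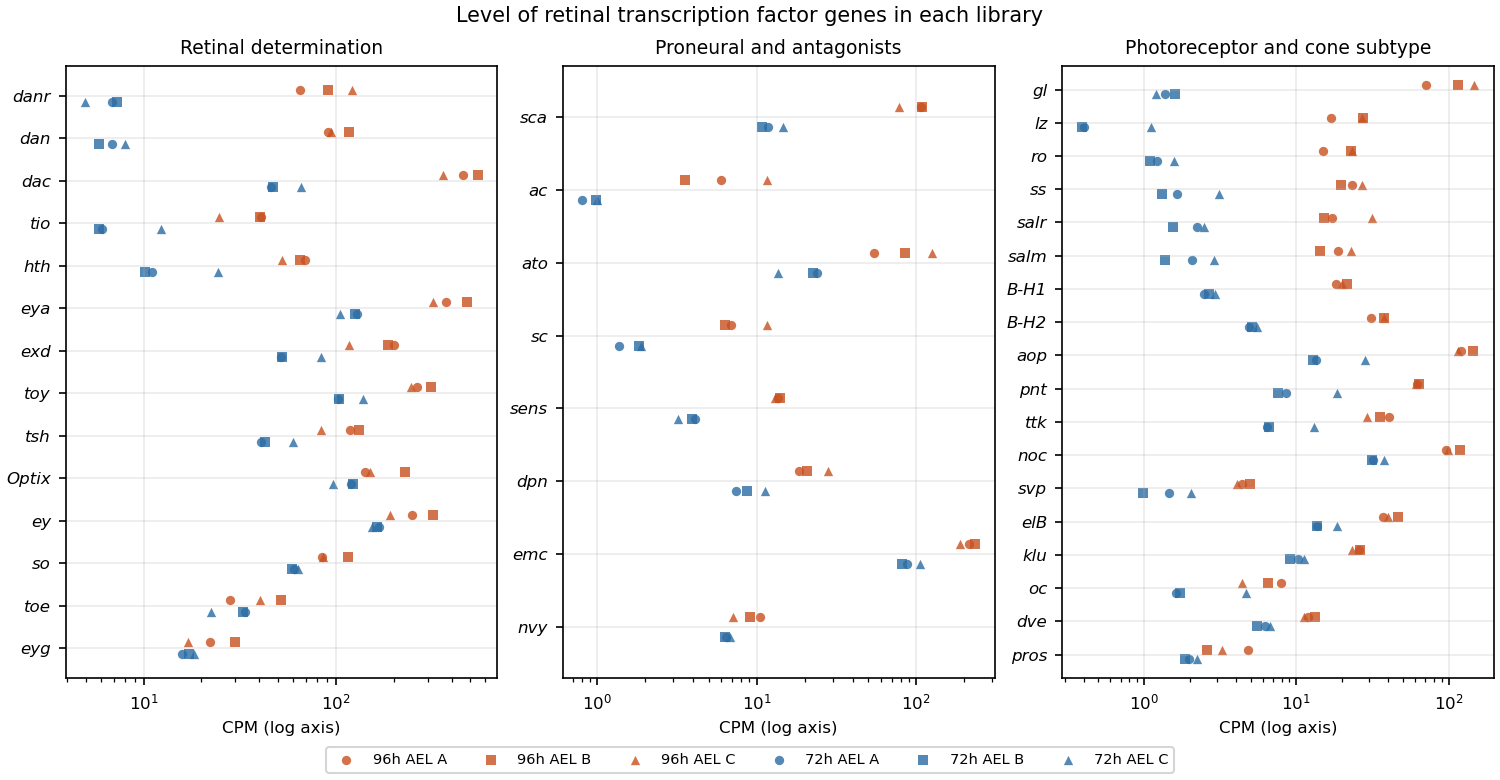
Level of each tested retinal transcription factor gene in CPM (horizontal log axis) in every library, with 96h AEL in orange above 72h AEL in blue and replicates A, B and C as circles, squares and triangles. The genes of each list run from the largest to the smallest log2 fold change: *danr*, *sc* and *ac*, *gl* and *lz* lie far apart between the stages, and *ey*, *Optix*, *eyg* and *toe* lie close together.

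Proneural genes were low in late L2 discs and higher in mid L3 discs. Of 14 listed genes, 12 were found in the count table and 8 were tested, and of these 7 were higher at 96h AEL, with a median log2 fold change of 2.01 (length-corrected 2.04, again 7 higher). *ato*, the proneural gene of R8, had 54.4, 84.7 and 126 CPM at 96h AEL, against 24, 22.4 and 13.7 CPM at 72h AEL (2.22 ± 0.48, adjusted p = 0.0234). The stages did not overlap, but the 96h AEL libraries differed by more than 2-fold among themselves, and the call was lost without 72h AEL replicate C (1.89) or 96h AEL replicate B (2.27). *sca*, which encodes a secreted protein that spaces the R8 cells, had 106, 108 and 77.6 CPM at 96h AEL, against 11.7, 10.7 and 14.5 CPM at 72h AEL (2.86 ± 0.23, adjusted p = 0.0028, length-corrected 2.36) and was the stable call of this list. *sens*, a zinc finger gene that acts after *ato* in R8, had 13.5, 14 and 13 CPM at 96h AEL, against 4.11, 3.94 and 3.19 CPM at 72h AEL (1.84 ± 0.24, adjusted p = 0.0089). *ac* and *sc*, the proneural genes of bristles and ocelli, rose by 2.85 and 2.19 on the log2 scale, both at levels under 12 CPM in every library, and reads of such related neighbours can be divided between them by the mapping.

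Genes that restrain proneural factors were higher as well. *emc*, whose product lacks a basic domain and blocks the binding of proneural proteins to DNA, had 214, 233 and 188 CPM at 96h AEL, against 87.1, 81.6 and 105 CPM at 72h AEL (1.10 ± 0.19, adjusted p = 0.0154). *dpn*, a repressor of the Hes type, had 18.5, 20.8 and 28.1 CPM at 96h AEL, against 7.46, 8.66 and 11.3 CPM at 72h AEL (1.16 ± 0.31, adjusted p = 0.0369). Of the 7 calls in this list, 5 held without 96h AEL replicate A, 1 without replicate B, 4 without 72h AEL replicate C and 2 with 72h AEL replicate C alone. Where a call was lost with 1 library left out, the log2 fold change was 1.07 to 3.19, and with 72h AEL replicate C alone *emc* and *dpn* lost the call at 0.91 and 0.90.

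Transcription factors of photoreceptor and cone subtypes had the highest median fold change of the transcription factor and signalling lists with TMM, and the second highest, under the 2.04 of the proneural list, after the length correction. Of 23 listed genes, 18 were tested and 15 were higher at 96h AEL (14 after the length correction), none was lower, and the median log2 fold change was 2.36 (length-corrected 1.98). *gl*, the zinc finger gene that all photoreceptors need, had 70.7, 115 and 147 CPM at 96h AEL, against 1.37, 1.58 and 1.19 CPM at 72h AEL (6.31 ± 0.48, adjusted p = 0.0025). *lz*, the Runx gene of the cells recruited after the first photoreceptors, had 16.8, 27.5 and 27.1 CPM at 96h AEL, against 0.403, 0.387 and 1.11 CPM at 72h AEL (4.96 ± 0.62, adjusted p = 0.0077), and *ro*, a homeobox gene of R2 and R5, had 15.1, 22.7 and 23.3 CPM at 96h AEL, against 1.21, 1.09 and 1.56 CPM at 72h AEL (3.86 ± 0.37, adjusted p = 0.0041). At 72h AEL none of these genes passed 2 CPM in any library, and at 96h AEL none lay under 15 CPM. They passed the filter on low counts only through their 96h AEL level, so the number higher and the median of this list follow in part from the filter.

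Genes of later or smaller cell groups followed. *ss*, which encodes a bHLH-PAS protein of the antenna and of photoreceptor subtypes, had 23.3, 19.8 and 27.2 CPM at 96h AEL, against 1.65, 1.3 and 3.08 CPM at 72h AEL (3.32 ± 0.44, adjusted p = 0.0089). The Spalt genes *salm* and *salr* rose by 2.99 and 3.25 (adjusted p = 0.0099 and 0.0114), and the Bar genes *B-H1* and *B-H2* of R1 and R6 by 2.80 and 2.69 (adjusted p = 0.0028 and 0.0025), with the caution that reads can be placed on either member of such pairs. *noc*, a zinc finger gene, had 95.7, 118 and 99.1 CPM at 96h AEL, against 31.8, 31.6 and 37.9 CPM at 72h AEL (1.52 ± 0.18, adjusted p = 0.0066). The ETS factors at the end of the EGFR pathway, the activator *pnt* and the repressor *aop* (Yan), had log2 fold changes of 2.18 ± 0.39 and 2.55 ± 0.39 (adjusted p = 0.0167 and 0.012). *pros*, a gene of R7 and cone cells, had 4.77, 2.6 and 3.23 CPM at 96h AEL and 1.98, 1.87 and 2.23 CPM at 72h AEL and did not pass the test (adjusted p = 0.259, length-corrected -0.38), and *svp*, a receptor gene of R3, R4, R1 and R6, missed the threshold (1.40 ± 0.45, adjusted p = 0.0565). The stable calls, 9 of 15, were *gl*, *ro*, *lz*, *B-H1*, *B-H2*, *salm*, *salr*, *ss* and *noc*. In all, 13 calls held without 96h AEL replicate A, 9 without replicate B, 14 without 72h AEL replicate C and 13 with 72h AEL replicate C alone.

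In the antennal and head capsule list, 15 genes were tested and 7 were higher at 96h AEL, with none lower and a median of 1.15 (length-corrected 0.91, 5 higher). *Dll*, the homeobox gene of the antenna and other appendages, had 38, 38.1 and 51.9 CPM at 96h AEL, against 9.67, 9.82 and 13 CPM at 72h AEL (1.85 ± 0.27, adjusted p = 0.011, length-corrected 2.01). *Dll* and *ss* were stable. *ct*, a homeobox gene with a CDS of 7152 bp, had 32.9, 22 and 23.2 CPM at 96h AEL, against 4.23, 3.66 and 10.5 CPM at 72h AEL, and its call (1.79 ± 0.49, adjusted p = 0.0392) did not hold after the length correction (0.68, adjusted p = 0.153) or without any of the 96h AEL replicates. *al*, another homeobox gene of the antenna, had 10.6, 11.5 and 25.7 CPM at 96h AEL and 33.9, 32.8 and 2.45 CPM at 72h AEL. Replicate C of 72h AEL lay under all other libraries and replicates A and B above them, so the stages overlapped. *ems*, *btd* and *Sp1*, genes of head and appendage patterning, rose by 0.94, 1.72 and 1.31 (adjusted p = 0.0183, 0.0176 and 0.0192). Of the 7 calls, 5 held without 96h AEL replicate A, 2 without replicate B and 2 with 72h AEL replicate C alone.

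Genes that divide the eye into dorsal and ventral parts were called about as often as the 19.4% of all tested genes that were higher. Of 10 tested genes 2 were higher, and after the length correction 3, beside 15.7% of all tested genes, with medians of 0.54 and 0.55. The calls were the Iroquois gene *ara* (1.32 ± 0.22, adjusted p = 0.0136) and the zinc finger gene *bowl*, which had 277, 309.7 and 214 CPM at 96h AEL, against 76.6, 77 and 115 CPM at 72h AEL (1.41 ± 0.27, adjusted p = 0.0185). The dorsal selector *mirr* had 48.5, 71 and 40.1 CPM at 96h AEL and 20.8, 18.9 and 30.4 CPM at 72h AEL, and the difference missed the threshold (adjusted p = 0.052). *pnr*, the dorsal GATA gene, had 12.5, 17.7 and 19.2 CPM at 96h AEL and 11.3, 11.2 and 20.8 CPM at 72h AEL, with replicate C of 72h AEL the highest library of all. Both calls were lost without 96h AEL replicate B, that of *bowl* also without replicate A, at log2 fold changes of 1.21 to 1.41, and 1 of them held with 72h AEL replicate C alone.

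Hox genes were at low levels in both stages, and 4 of 8 passed the filter, with 1 higher and 1 lower and a median of 0.06 (length-corrected -0.11). These counts lie near the shares over all tested genes, 19.4% higher and 23% lower. *lab*, the most anterior Hox gene, had 9.25, 9.39 and 9.94 CPM at 96h AEL, against 3.51, 3.77 and 3.19 CPM at 72h AEL (1.42 ± 0.27, adjusted p = 0.0185). *Antp*, a Hox gene of the thorax, fell (-3.32 ± 0.83, adjusted p = 0.032), with 0.16, 0.62 and 0.395 CPM at 96h AEL, against 1.89, 2.15 and 5.42 CPM at 72h AEL. It was the largest fall among the listed transcription factors. The call of *Antp* was lost without each of the 96h AEL replicates, at log2 fold changes of -3.77 to -2.90, and of the 2 Hox calls none held if either 96h AEL replicate B or 72h AEL replicate C was left out, or with 72h AEL replicate C alone.

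Nuclear receptor genes of the ecdysone response held calls in both directions with TMM. In larvae the steroid acts through the heterodimer of the receptors EcR and Ultraspiracle, and each pulse induces a set of early genes, many of them nuclear receptors. Of 17 tested nuclear receptor genes 4 were higher and 2 lower, with a median of 0.49 (length-corrected 2 higher and 3 lower, median 0.19). Among all tested genes 19.4% were higher and 23% lower (length-corrected 15.7% and 25.6%). *EcR* had 108, 110.3 and 69.99 CPM at 96h AEL, against 10.04, 10.5 and 19.96 CPM at 72h AEL (2.60 ± 0.39, adjusted p = 0.0114, length-corrected 2.04), while its partner *usp* had 54.7, 64.6 and 47.1 CPM at 96h AEL and 28.8, 28.5 and 41.4 CPM at 72h AEL and did not pass the test (0.60 ± 0.22, adjusted p = 0.0814). *Hr39* was also higher (1.70 ± 0.39, adjusted p = 0.0272). The early genes *Eip78C* and *Hr4* fell. *Eip78C* had 28.3, 16.8 and 23 CPM at 96h AEL, against 59.1, 58.4 and 43.8 CPM at 72h AEL (-1.23 ± 0.27, adjusted p = 0.0245, length-corrected -1.82), and *Hr4* had 19.1, 12.2 and 15 CPM at 96h AEL, against 29.8, 31 and 33.1 CPM at 72h AEL (-1.10 ± 0.23, adjusted p = 0.023, length-corrected -2.25). The stages did not overlap for either gene. With scaling by library size alone both lost the call (-0.73 and -0.63), and 10 nuclear receptor genes were then higher and none lower. *Eip75B* was called higher (1.09 ± 0.30, adjusted p = 0.0383) but not after the length correction (0.19). *ftz-f1* did not pass the test in either fit and turned its direction between them (0.47, length-corrected -0.27).

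Among 8 tested genes of developmental timing 5 were higher in both fits, with a median of 1.78 (length-corrected 1.25). *Kr-h1*, a zinc finger gene of the juvenile hormone response, had 54.9, 63.2 and 56 CPM at 96h AEL, against 13.7, 13.7 and 21 CPM at 72h AEL (1.68 ± 0.24, adjusted p = 0.0101, length-corrected 1.17) and was stable. *Eip74EF*, an ETS gene of the early ecdysone response, had 37.8, 27.7 and 30.1 CPM at 96h AEL, against 4.64, 5.56 and 11.4 CPM at 72h AEL (1.88 ± 0.41, adjusted p = 0.0238). *chinmo*, a zinc finger gene known from the timing of neuroblast and imaginal fates, had 25.7, 15.7 and 6.28 CPM at 96h AEL, against 2.3, 2.82 and 3.38 CPM at 72h AEL (2.34 ± 0.64, adjusted p = 0.0383), with a wide spread among the 96h AEL libraries, and the call was lost without 96h AEL replicates A or B or 72h AEL replicate C. *grh*, which encodes the epithelial factor Grainy head, rose by 2.21 ± 0.36 (adjusted p = 0.0141, length-corrected 1.34). None of the 6 nuclear receptor calls held without 96h AEL replicate B, 3 held without replicate A, 4 without replicate C or without 72h AEL replicate C, and 1 with 72h AEL replicate C alone. Of the 5 timing calls 1 held without 96h AEL replicate B, 2 without replicate A and 3 with 72h AEL replicate C alone. The hormone itself was not measured, and the larvae of 72h AEL were of both sexes.

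Further families of transcription factors were measured. In the forkhead family 4 of 8 tested genes were higher (length-corrected 4 higher and 1 lower), with a median of 0.99 (length-corrected 0.68). *fd96Cb* had 51.6, 44.6 and 72.1 CPM at 96h AEL, against 11.8, 11.7 and 14.4 CPM at 72h AEL (2.05 ± 0.30, adjusted p = 0.0111) and was stable, and *jumu* had 151, 141 and 101 CPM at 96h AEL, against 14.6, 14.7 and 35.3 CPM at 72h AEL (2.32 ± 0.45, adjusted p = 0.0189) and lost the call without 96h AEL replicate B (2.31). Of 11 tested GATA and T-box genes 4 were higher, 3 of which kept the call after the length correction, with a median of 0.74 (length-corrected 4 higher, median 0.73). *bi* (optomotor-blind), a T-box target of Dpp signalling, had 81.6, 89.6 and 53.2 CPM at 96h AEL, against 13.8, 13.6 and 26.2 CPM at 72h AEL (1.84 ± 0.37, adjusted p = 0.0212, length-corrected 1.15). *Doc2*, one of 3 closely related T-box genes whose reads can be divided by the mapping, rose by 1.63 ± 0.28 (adjusted p = 0.0151). *srp*, the GATA gene of hemocytes and fat body, had 1.64, 3.72 and 11.9 CPM at 96h AEL and 8.59, 9.19 and 42.3 CPM at 72h AEL, with the highest levels in the C replicates, where hemocyte markers were also highest. None of the 4 tested Sox genes was called by edgeR or by DESeq2, and the lowest unadjusted edgeR p among them was 0.431, with a median of 0.19 that turned to -0.04 after the length correction. The glial gene *repo* had 15.1, 17.2 and 16 CPM at 96h AEL, against 9.71, 9.93 and 7.53 CPM at 72h AEL (0.83 ± 0.22, adjusted p = 0.0354). Its call was lost after the length correction and without 72h AEL replicate C or any of the 96h AEL replicates. A list of 11 glia marker genes held calls in both directions. *Gli*, *loco* and *nrv2* had log2 fold changes of 1.93, 1.02 and 0.72, and *Gs2*, *Mdr65* and *alrm* of -2.05, -1.87 and -3.20. None of the 7 calls of this marker list was stable. With each library left out in turn, its median ran from -0.75 to -0.62. The list summed to 495, 506 and 421 CPM at 96h AEL and 384, 381 and 328 CPM at 72h AEL. Without 96h AEL replicate B, 1 of the 4 forkhead calls and none of the 4 GATA and T-box calls held, and with 72h AEL replicate C alone 2 and none.

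Of 21 tested transcription factors of growth, the cell cycle and stress, 8 were higher and 2 lower (length-corrected 5 higher and 1 lower), with a median of 0.83 (length-corrected 0.31). The shares over all tested genes were 19.4% higher and 23% lower (length-corrected 15.7% and 25.6%). *E2f1* and *Dp*, whose products form the dimer that drives entry into S phase, had log2 fold changes of 1.44 ± 0.30 and 1.34 ± 0.27 (adjusted p = 0.0216 and 0.02, length-corrected 0.94 and 1.40). *E2f2*, the repressive member of the family, had 43, 44.1 and 45.4 CPM at 96h AEL and 43.7, 44.2 and 41.6 CPM at 72h AEL, and the stages overlapped. *Myc*, the driver of growth, had 72.1, 45 and 33 CPM at 96h AEL, against 4.76, 5 and 21.7 CPM at 72h AEL, and did not pass the test (1.84 ± 0.72, adjusted p = 0.089), and replicate C of 72h AEL lay well above replicates A and B. *Mnt*, which encodes the antagonist of Myc, rose (1.60 ± 0.42, adjusted p = 0.0354). Their common partner *Max* had 42.5, 47.2 and 46.4 CPM at 96h AEL, against 60.7, 61.7 and 56.4 CPM at 72h AEL, a small fall (-0.43 ± 0.13, adjusted p = 0.0496) that turned to 0.082 after the length correction and to 0.051 with scaling by library size alone. *Xbp1*, the factor of the unfolded protein response, fell by 0.66 on the log2 scale (adjusted p = 0.0434), and lost the call with scaling by library size alone (-0.19) and without 72h AEL replicate C or any 96h AEL replicate. Of these 10 calls 1 held without 96h AEL replicate A, none without replicate B, 6 without 72h AEL replicate C and 1 with 72h AEL replicate C alone.

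**Figure D3:**
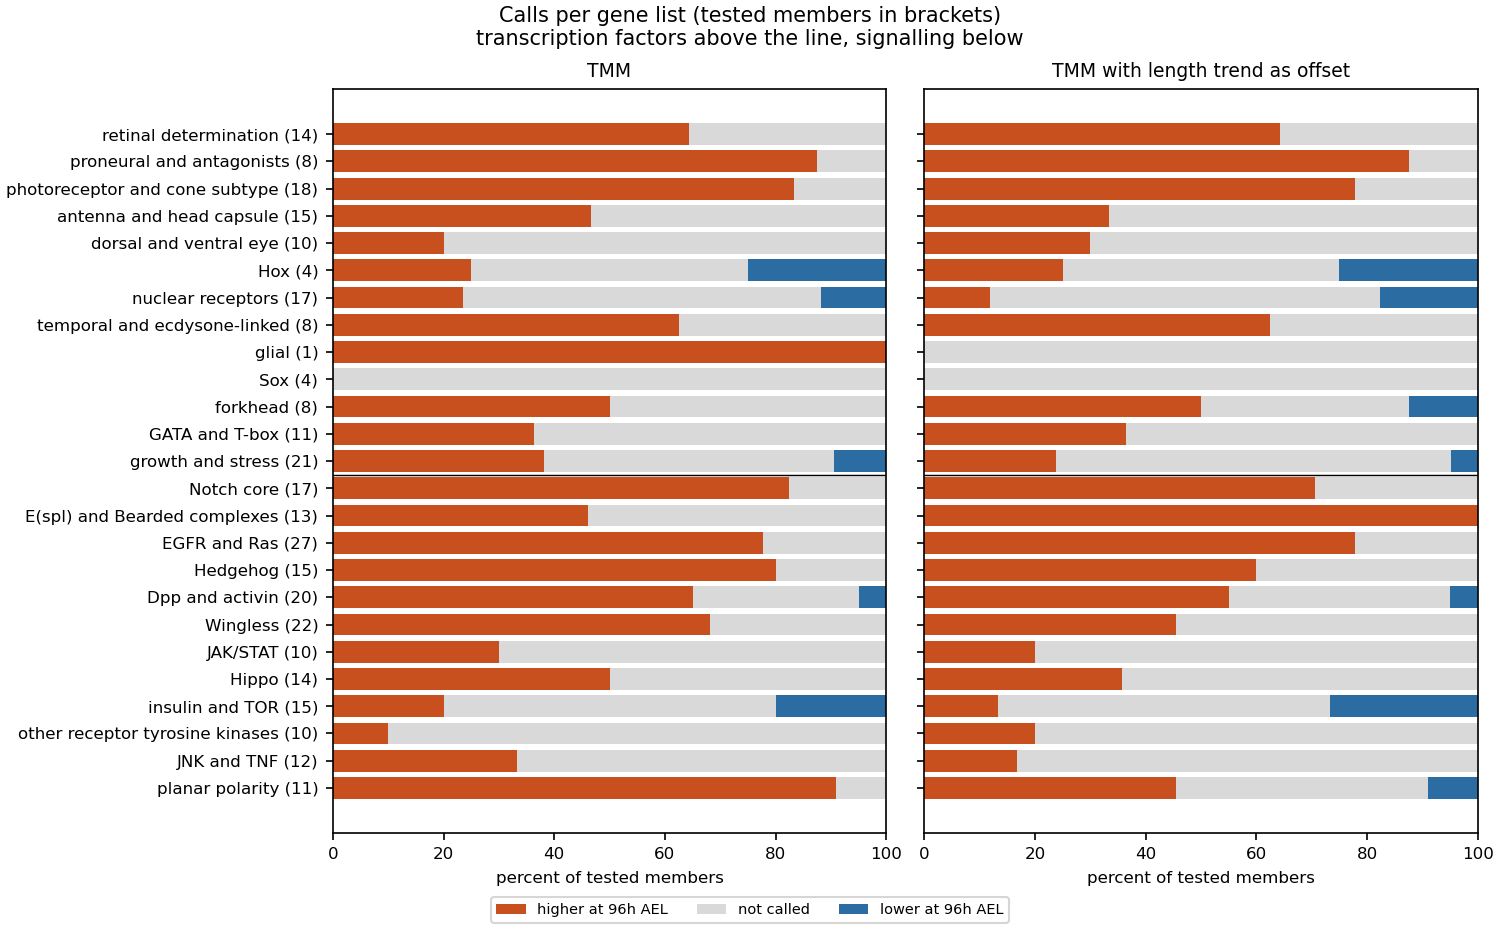
Share of the tested members of each gene list (rows, with the number tested in brackets) that was called higher at 96h AEL (orange), not called (grey) or called lower at 96h AEL (blue), in percent, for TMM scaling (left) and with the length trend removed (right). Transcription factor lists stand above the line and signalling lists below it: the E(spl) and Bearded complexes go from 6 to 13 of 13 higher with the length correction, and planar polarity from 10 to 5 of 11.

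Over all transcription factor lists together (178 genes listed, 170 found, 133 tested) 66 genes were higher at 96h AEL and 5 lower, with a median log2 fold change of 1.02. After the length correction 58 were higher and 6 lower, with a median of 0.72. Among all tested genes 19.4% were higher and 23% lower (length-corrected 15.7% and 25.6%). These lists were assembled around eye development with results of these data already known, so the split is a description of the listed genes and not of transcription factors in general. Of the 71 calls, 37 held without 96h AEL replicate A, 16 without replicate B, 62 without replicate C, 54 without 72h AEL replicate C and 29 with 72h AEL replicate C alone. A set of 16 calls was stable, each of them a rise: *B-H1*, *B-H2*, *dac*, *dan*, *danr*, *Dll*, *fd96Cb*, *gl*, *Kr-h1*, *lz*, *noc*, *ro*, *salm*, *salr*, *sca* and *ss*.

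The core of the Notch pathway was higher at 96h AEL. Notch is a receptor that is cut after it binds its ligands Delta or Serrate on a neighbouring cell, and its intracellular part then joins Suppressor of Hairless and Mastermind on target genes. Of 17 tested core genes 14 were higher and none lower, with a median of 1.13 (length-corrected 12 higher, median 0.85). For this and each signalling list below, the shares of all tested genes were 19.4% higher and 23% lower (length-corrected 15.7% and 25.6%). In the longest length class 52.1% of genes were higher with TMM and 17.2% after the correction. Of the ligands, *Ser* had 81.2, 77 and 47.5 CPM at 96h AEL and 25.4, 25.8 and 47.6 CPM at 72h AEL, which overlapped between the stages (0.83 ± 0.36, adjusted p = 0.111, length-corrected -0.08), and the gene of the ligand Delta was not analysed here. The receptor gene *N* had 441, 361 and 250.4 CPM at 96h AEL, against 36, 34.7 and 76.1 CPM at 72h AEL (2.58 ± 0.45, adjusted p = 0.0157). Its CDS is long (8112 bp), and the length-corrected change was 1.39 (adjusted p = 0.0129). *kuz*, the metalloprotease gene of the first cut, had 57.9, 52.8 and 34.2 CPM at 96h AEL, against 3.79, 4.61 and 10.4 CPM at 72h AEL (2.65 ± 0.48, adjusted p = 0.017, length-corrected 1.84), the largest rise of the list. For *N* and *kuz* the lowest 96h AEL library was more than 3 times the highest 72h AEL library.

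Several modifiers and nuclear partners of Notch were higher as well. *fng*, the glycosyltransferase gene that sets which ligand Notch answers to, had 229, 281 and 242 CPM at 96h AEL, against 102, 104 and 131 CPM at 72h AEL (1.03 ± 0.20, adjusted p = 0.0197). *neur*, the ubiquitin ligase gene that acts on Delta in the sending cell, had 30.4, 27 and 21.8 CPM at 96h AEL, against 3.06, 3.06 and 8.01 CPM at 72h AEL (2.19 ± 0.47, adjusted p = 0.0237, length-corrected 1.78, beside 1.39 for *N*). In the nucleus, *Su(H)* had 28.6, 29.7 and 23.5 CPM at 96h AEL, against 10.6, 11.1 and 14.5 CPM at 72h AEL (1.04 ± 0.21, adjusted p = 0.0207), and the co-activator gene *mam* rose by 1.63 (adjusted p = 0.0267) but lost the call after the length correction (0.67). The antagonists *H* and *numb* rose by 1.38 and 1.55 (adjusted p = 0.0258 and 0.015). Genes of the gamma-secretase complex that makes the second cut, *aph-1* and *pen-2*, overlapped between the stages (0.06 and -0.26). None of the 14 calls held without 96h AEL replicate B, 6 held without replicate A, 13 without 72h AEL replicate C and 4 with 72h AEL replicate C alone. The calls lost in the leave-one-out fits had log2 fold changes of 0.84 to 2.63.

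The direct Notch targets of the E(spl) and Bearded complexes have short coding sequences (median 537 bp), so the length correction acted on them in the other direction. Of 13 tested genes 6 were higher with TMM and all 13 after the correction, with medians of 1.47 and 1.87, beside 46 of 1474 genes higher with TMM in the shortest length class and 219 after the correction. *E(spl)mdelta-HLH*, a bHLH repressor gene of the eye disc, had 42.8, 57.2 and 90.6 CPM at 96h AEL, against 5.36, 5.39 and 4.27 CPM at 72h AEL (3.67 ± 0.44, adjusted p = 0.0069, length-corrected 4.10). *E(spl)malpha-BFM*, of the Bearded family whose small proteins inhibit Neuralized, had 38.1, 53 and 108 CPM at 96h AEL, against 6.37, 6.16 and 4.19 CPM at 72h AEL (3.62 ± 0.61, adjusted p = 0.0144, length-corrected 4.13). These 2 calls were stable.

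Further bHLH genes of the complex followed. *E(spl)mgamma-HLH* had 82.8, 130.2 and 218 CPM at 96h AEL, against 31.6, 31.2 and 21.8 CPM at 72h AEL (2.39 ± 0.51, adjusted p = 0.0233), *E(spl)m7-HLH* rose by 2.35 ± 0.46 (adjusted p = 0.0191) and *E(spl)m8-HLH* by 2.09 ± 0.43 (adjusted p = 0.0221). For these genes replicate C was the highest library at 96h AEL and the lowest at 72h AEL. *E(spl)mbeta-HLH* differed from them, with 43.2, 57.3 and 70.1 CPM at 96h AEL and 54.6, 51.3 and 49.1 CPM at 72h AEL, which overlapped (0.11 ± 0.25, adjusted p = 0.746), although it passed the test after the length correction (0.49, adjusted p = 0.048). *Brd*, *Tom* and *Ocho* of the Bearded complex had log2 fold changes of 0.91, 0.96 and 0.94, with no call, and all were called after the correction (1.62 for *Brd* and 1.46 for *Tom*). *E(spl)m6-BFM* and *BobA* were under 1 CPM in every library and were not tested. All 6 TMM calls held without 96h AEL replicate A, 2 without replicate B, 3 without 72h AEL replicate C and 3 with 72h AEL replicate C alone. The genes of this complex are related in sequence, and reads that match several of them can be divided by the mapping.

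**Figure D4:**
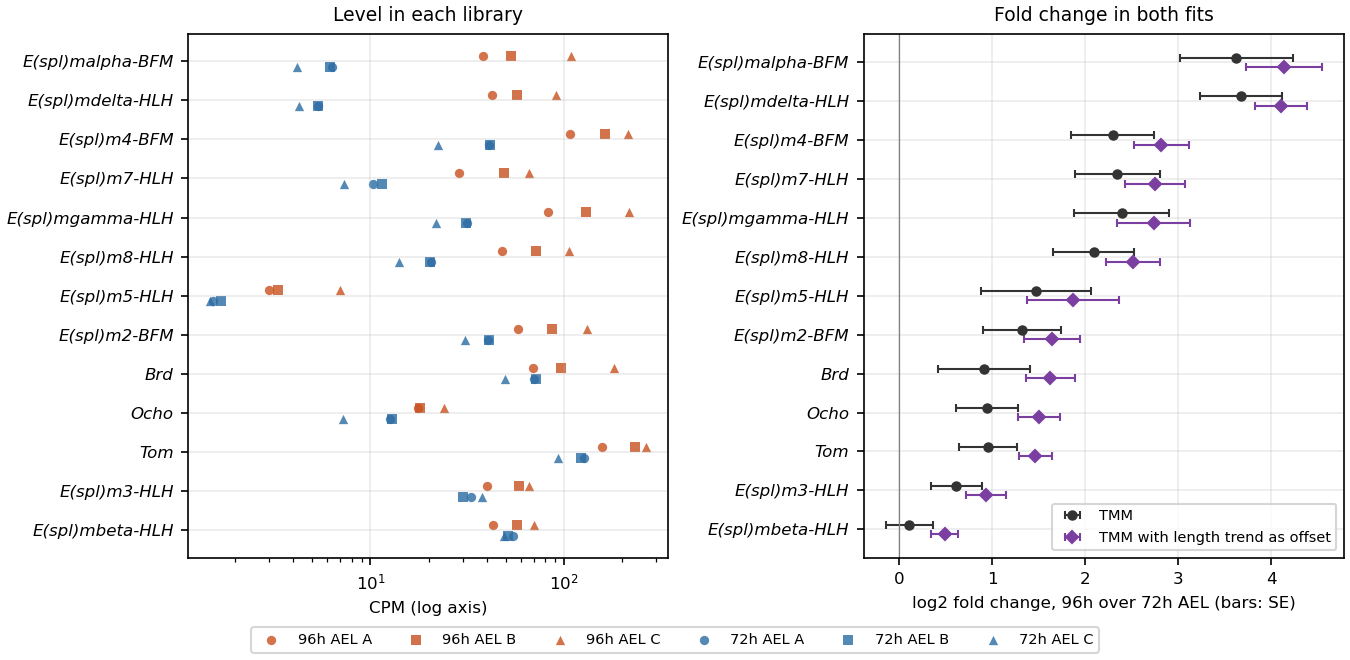
The 13 tested genes of the E(spl) and Bearded complexes. Left, the level in CPM (log axis) in each library, with 96h AEL in orange above 72h AEL in blue. Right, the log2 fold change of 96h over 72h AEL with its standard error for TMM (black circles) and with the length trend removed (purple diamonds): the correction moves every gene to the right, and *E(spl)malpha-BFM* and *E(spl)mdelta-HLH* lie at 4.13 and 4.10 with the trend removed.

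EGFR and Ras signalling had 21 of 27 tested genes higher at 96h AEL and none lower, with a median of 1.45, and after the length correction again 21 higher, 19 of them the same genes, with a median of 1.14. EGFR ligands of the Spitz type are made as membrane proteins, and rhomboid proteases release them. Among the ligands, *spi* had 118, 127 and 124 CPM at 96h AEL, against 86.7, 89.96 and 80.1 CPM at 72h AEL, a small rise (0.48 ± 0.15, adjusted p = 0.0483, length-corrected 0.82) that lost the call without 72h AEL replicates A or C or any 96h AEL replicate, and *Krn* rose by 0.79 ± 0.23 (adjusted p = 0.0418). *vn*, the ligand of the neuregulin type, overlapped between the stages (0.57). The rhomboid proteases had larger fold changes than the ligands, a difference that was not tested itself. *ru* (roughoid) had 11.3, 17.9 and 35.5 CPM at 96h AEL, against 0.967, 0.634 and 0.186 CPM at 72h AEL (5.35 ± 0.93, adjusted p = 0.0155), and *rho* had 8.8, 11.6 and 15.6 CPM at 96h AEL, against 2.1, 1.83 and 3.64 CPM at 72h AEL (2.05 ± 0.47, adjusted p = 0.0263). *S*, the gene of Star that carries the ligands through the secretory pathway, had 37.5, 40.6 and 27.4 CPM at 96h AEL, against 4.43, 4.65 and 10.3 CPM at 72h AEL (2.18 ± 0.42, adjusted p = 0.019). Without 96h AEL replicate B the calls of *ru* (5.50), *rho* (2.11) and *S* (2.11) were lost.

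Of the receptors, *Egfr* had 281, 251 and 173 CPM at 96h AEL, against 50.9, 52.9 and 75.6 CPM at 72h AEL (1.81 ± 0.30, adjusted p = 0.0137, length-corrected 0.87, adjusted p = 0.0088). *sev*, the receptor tyrosine kinase gene of the R7 precursor, had 53.7, 52.4 and 68.3 CPM at 96h AEL, against 7.94, 7.11 and 8.2 CPM at 72h AEL (2.83 ± 0.23, adjusted p = 0.0028, length-corrected 1.66, with a CDS of 7665 bp). *boss*, the gene of its ligand on R8, stayed under 3 CPM in every library and was not tested. Inside the cell, the kinase gene *phl* (Raf) had 63.1, 64.1 and 58.7 CPM at 96h AEL, against 24.7, 24.8 and 27.8 CPM at 72h AEL (1.18 ± 0.13, adjusted p = 0.0059). *Sos*, the exchange factor gene of Ras, was called with TMM only (1.10, adjusted p = 0.0167, length-corrected 0.12), and *Ras85D* after the correction only (0.53, length-corrected 0.97, adjusted p = 0.0454).

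Several inhibitors of the pathway were higher too. *aos*, which encodes the secreted inhibitor that binds Spitz, had 37, 37.2 and 35.7 CPM at 96h AEL, against 6.73, 6.9 and 7.42 CPM at 72h AEL (2.30 ± 0.16, adjusted p = 0.002, length-corrected 2.36), and the libraries of each stage lay close together. *sty* (Sprouty) had 26.9, 31.3 and 28.9 CPM at 96h AEL, against 5.6, 5.17 and 12 CPM at 72h AEL (1.68 ± 0.39, adjusted p = 0.0274), and *kek1*, a transmembrane inhibitor of the receptor, had 58.3, 60.2 and 41.7 CPM at 96h AEL, against 3.43, 3.52 and 8.57 CPM at 72h AEL (3.09 ± 0.47, adjusted p = 0.0118). At the end of the pathway *phyl*, whose product works with the ubiquitin ligase Sina in R7, had 14.3, 19.9 and 37.7 CPM at 96h AEL, against 3.02, 2.85 and 2.26 CPM at 72h AEL (3.16 ± 0.55, adjusted p = 0.0157), and *cic*, the repressor gene that Ras signalling relieves, rose by 2.47 ± 0.51 (adjusted p = 0.022, length-corrected 1.40). *aos*, *sev* and *phl* were stable. Of the 21 calls, 13 held without 96h AEL replicate A, 3 without replicate B, 19 without replicate C or 72h AEL replicate C and 11 with 72h AEL replicate C alone.

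In the Hedgehog pathway 12 of 15 tested genes were higher at 96h AEL and none lower, with a median of 1.27, and after the length correction 9 were higher, with a median of 0.61. The ligand gene *hh* had 31.1, 32.9 and 32 CPM at 96h AEL, against 7.62, 7.36 and 12.4 CPM at 72h AEL (1.62 ± 0.27, adjusted p = 0.0145, length-corrected 1.65). *ptc*, both the receptor gene and a target of the pathway, had 170.0, 188 and 147 CPM at 96h AEL, against 47.8, 52 and 64.2 CPM at 72h AEL (1.49 ± 0.20, adjusted p = 0.0089, length-corrected 0.63, adjusted p = 0.0297). The co-receptor gene *boi* had 123, 124 and 77.8 CPM at 96h AEL, against 22.7, 21.6 and 27 CPM at 72h AEL (2.07 ± 0.26, adjusted p = 0.0076, length-corrected 1.28) and was the stable call. The signal transducer *smo* and the transcription factor *ci* were called with TMM only. *ci* had 828, 607 and 488 CPM at 96h AEL, against 272, 272 and 313 CPM at 72h AEL (1.06 ± 0.27, adjusted p = 0.0328), and with a CDS of 4194 bp its length-corrected change was 0.11 (adjusted p = 0.575), while that of *smo* was 0.56 against 1.27. The proteoglycan genes *dally* and *dlp*, which carry Hedgehog and other ligands between cells, rose by 1.79 and 1.07 (adjusted p = 0.0383 and 0.0288). Of the 12 calls, 4 held without 96h AEL replicate A, 1 without replicate B, 11 without 72h AEL replicate C and 3 with 72h AEL replicate C alone.

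For Dpp and activin signalling 20 genes were tested, of which 13 were higher and 1 lower, with a median of 1.03 (length-corrected 11 higher and 1 lower, median 0.86). Of the ligands, *dpp* had 45.7, 46.4 and 32.8 CPM at 96h AEL, against 14.2, 14.4 and 23.7 CPM at 72h AEL (1.06 ± 0.29, adjusted p = 0.037, length-corrected 0.88), and *gbb* had 172, 214 and 206 CPM at 96h AEL and 196, 193 and 138 CPM at 72h AEL, which overlapped. *daw* (dawdle), a ligand of the activin branch, fell (-2.07 ± 0.38, adjusted p = 0.0175, length-corrected -2.26), with 9.32, 8.92 and 10.4 CPM at 96h AEL, against 55.7, 53.3 and 22.7 CPM at 72h AEL, and its stages did not overlap. The receptors rose together. The type I receptor gene *tkv* had 139, 131 and 98.1 CPM at 96h AEL, against 21.6, 19 and 51.4 CPM at 72h AEL (1.71 ± 0.45, adjusted p = 0.035), and the type II receptor gene *wit* had 37.9, 36.9 and 25.9 CPM at 96h AEL, against 3.83, 4.01 and 6.42 CPM at 72h AEL (2.63 ± 0.32, adjusted p = 0.0071, length-corrected 2.03). *sax*, *put* and *babo* rose by 0.998, 0.99 and 1.37, of which *babo* lost the call after the length correction (1.12, adjusted p = 0.0504).

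Of the Smad genes, *Mad* had 71, 71.9 and 51.1 CPM at 96h AEL, against 20.1, 18.7 and 30.1 CPM at 72h AEL (1.32 ± 0.26, adjusted p = 0.0202), and *Smox* of the activin branch had 68.9, 58.8 and 33.8 CPM at 96h AEL, against 5.44, 5.1 and 13.5 CPM at 72h AEL (2.45 ± 0.53, adjusted p = 0.0241). *brk*, which encodes the repressor of Dpp targets, rose with the pathway, with 50.8, 56.6 and 48 CPM at 96h AEL, against 11.9, 12.3 and 18.2 CPM at 72h AEL (1.71 ± 0.23, adjusted p = 0.009, length-corrected 1.35), and *Dad*, the inhibitory Smad and a target of Dpp, missed the threshold (0.97 ± 0.30, adjusted p = 0.0515). *tok*, a protease gene of the Tolloid family, rose by 1.996 ± 0.26 (adjusted p = 0.0089, length-corrected 0.998). The stable calls were *brk* and *wit*. Of all 14 calls 4 held without 96h AEL replicate A, 2 without replicate B and 4 with 72h AEL replicate C alone, and the fall of *daw* was lost without 96h AEL replicates A or B at log2 fold changes of -2.04 and -1.995.

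In the Wingless pathway 22 genes were tested and 15 were higher at 96h AEL, with none lower and a median of 1.43, and 10 were higher after the length correction, with a median of 0.87. The gene of the ligand Wingless was not analysed here. Among other ligands *Wnt5* had 73.2, 72.7 and 65.4 CPM at 96h AEL, against 16.9, 18.1 and 28.3 CPM at 72h AEL (1.56 ± 0.25, adjusted p = 0.0127), and *Wnt6* had 42.4, 47.7 and 55.9 CPM at 96h AEL and 39.6, 38.8 and 39.7 CPM at 72h AEL, with no call. *arr*, which encodes the LRP co-receptor, had 221, 207 and 163 CPM at 96h AEL, against 21.8, 22 and 33.5 CPM at 72h AEL (2.77 ± 0.28, adjusted p = 0.0046, length-corrected 1.76, adjusted p = 0.0023) and was the stable call of this list. The receptor gene *fz2* had 201, 196 and 104 CPM at 96h AEL, against 26.6, 25 and 45.5 CPM at 72h AEL (2.15 ± 0.41, adjusted p = 0.0187, length-corrected 1.65).

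Downstream, *arm* (beta-catenin) had 835, 831 and 536 CPM at 96h AEL, against 340.4, 342 and 379 CPM at 72h AEL (0.96 ± 0.25, adjusted p = 0.034), and its call did not hold after the length correction (0.40, adjusted p = 0.081). The same was true of the TCF gene *pan* (1.72, length-corrected 0.90), of *Apc* (1.499, length-corrected 0.35), of *dsh* (0.83, length-corrected 0.58) and of *fz3* (0.90, length-corrected 0.64), a receptor gene that Wingless signalling induces. A pair of negative regulators rose in both fits, *Axn*, of the destruction complex, by 1.47 (length-corrected 1.06) and *nkd* (naked cuticle), also a target of the pathway, by 1.44 (length-corrected 0.84). *Notum*, the secreted inhibitor gene, had 13, 13.3 and 7.04 CPM at 96h AEL and 1.37, 1.62 and 5.16 CPM at 72h AEL and did not pass the test (adjusted p = 0.0846). Of these 15 calls, 7 held without 96h AEL replicate A, 1 without replicate B, 11 without 72h AEL replicate C and 5 with 72h AEL replicate C alone.

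The other pathways held smaller shares of called genes than the Notch core, EGFR, Hedgehog, Dpp and Wingless lists, planar polarity excepted. In the JAK/STAT pathway 3 of 10 tested genes were higher (length-corrected 2), beside 19.4% (length-corrected 15.7%) of all tested genes. The median was 0.84 (length-corrected 0.34). The ligand genes *upd1* and *upd3* overlapped between the stages, and the receptor gene *dome* (0.89 ± 0.30, adjusted p = 0.0628) and the transcription factor gene *Stat92E* (1.31 ± 0.49, adjusted p = 0.0805) did not pass the test. *Socs16D*, of the SOCS family, had 32, 30.6 and 27.2 CPM at 96h AEL, against 4.96, 5.42 and 11.4 CPM at 72h AEL (1.79 ± 0.38, adjusted p = 0.0228). *et*, which encodes a receptor without signalling activity that blocks the pathway, had 1.19, 2.73 and 19.1 CPM at 96h AEL and 16.1, 16.2 and 106 CPM at 72h AEL, highest in the C replicates of both stages. None of the 3 calls held without 96h AEL replicates A or B, and 1 held with 72h AEL replicate C alone.

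In the Hippo pathway, which restrains growth, 7 of 14 tested genes were higher and none lower, with a median of 0.71 (length-corrected 5 higher, median 0.38). *ex* (expanded), both a regulator and a target of the pathway, had 316, 318 and 207 CPM at 96h AEL, against 36.9, 36.3 and 92.4 CPM at 72h AEL (2.05 ± 0.47, adjusted p = 0.0272, length-corrected 1.17). The atypical cadherin gene *ft*, with the longest CDS of the signalling lists (15444 bp), had 438, 385 and 274 CPM at 96h AEL, against 91, 84 and 125 CPM at 72h AEL (1.71 ± 0.29, adjusted p = 0.015), but the length-corrected change was 0.32 (adjusted p = 0.0822). Of the nuclear pair, *sd* rose (1.78 ± 0.41, adjusted p = 0.0274, length-corrected 1.54), and *yki* had 78.9, 105 and 127 CPM at 96h AEL and 80.5, 84.3 and 76.4 CPM at 72h AEL, which overlapped. The calls rested on the 96h AEL libraries, and 2 of 7 held without replicate A, none without replicate B and none with 72h AEL replicate C alone.

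Insulin and TOR genes were called about as often as all tested genes, of which 19.4% were higher and 23% lower (length-corrected 15.7% and 25.6%). The list had 3 genes higher and 3 lower of 15 tested (length-corrected 2 higher and 4 lower), and the median of 0.47 turned to -0.01 after the length correction. *Thor*, which encodes the inhibitor 4E-BP of translation, fell (-2.48 ± 0.31, adjusted p = 0.0079, length-corrected -1.83), with 33.2, 29.2 and 44.5 CPM at 96h AEL, against 239, 237 and 146 CPM at 72h AEL, and was the stable fall among all signalling genes. *ImpL2*, the gene of a secreted protein that binds insulin-like peptides, had 45.4, 41.5 and 60.8 CPM at 96h AEL, against 104, 102 and 149 CPM at 72h AEL (-1.41 ± 0.28, adjusted p = 0.0196, length-corrected -1.15), and lost the call without 96h AEL replicates A or B and with scaling by library size. *raptor*, a TOR partner gene with a CDS of 4866 bp, rose with TMM only (2.12, adjusted p = 0.0368, length-corrected 1.11, adjusted p = 0.0576). Both measured insulin-like peptide genes that passed the filter, *Ilp2* and *Ilp5*, were under 5 CPM in every library and overlapped. Of the 6 calls, 2 held without 96h AEL replicate A, 1 without replicate B and 3 with 72h AEL replicate C alone.

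Among 10 tested genes of FGF, PVR and related receptor tyrosine kinases 1 was higher, beside 19.4% of all tested genes. It was the FGF gene *bnl* (1.25 ± 0.31, adjusted p = 0.0313), and the median of 0.35 turned to -0.21 after the length correction. The call of *bnl* was lost without 96h AEL replicates A or B. Of 12 tested JNK and TNF genes 4 were higher (length-corrected 2), beside 19.4% (length-corrected 15.7%) of all tested genes, with a median of 0.37 in both fits. The largest rise was that of *Mmp2*, which encodes a matrix metalloprotease, with 463, 535 and 543 CPM at 96h AEL, against 43.1, 42.1 and 60.7 CPM at 72h AEL (3.25 ± 0.27, adjusted p = 0.003, length-corrected 2.84), and it was stable. Its paralog *Mmp1* had 26.6, 22 and 15.9 CPM at 96h AEL and 21.4, 20.4 and 24.1 CPM at 72h AEL, which overlapped. The ligand *egr*, the target *puc* and the AP-1 gene *kay* overlapped as well, and apart from *Mmp2* no call of this list held without 96h AEL replicates A or B or with 72h AEL replicate C alone.

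Among planar polarity genes, which orient the ommatidia, the calls depended on CDS length. Of 11 tested genes 10 were higher with TMM, and 5 higher and 1 lower after the correction, with medians of 1.14 and 0.58. *stan* (starry night), the cadherin gene of the core complex with a CDS of 10947 bp, had 108, 109.7 and 86.3 CPM at 96h AEL, against 15.6, 14.4 and 22.7 CPM at 72h AEL (2.36 ± 0.25, adjusted p = 0.0053, length-corrected 1.07, adjusted p = 0.0087) and was stable. *Vang* rose in both fits (1.59, length-corrected 1.38), and so did *nmo*, a kinase gene of ommatidial rotation, with 28.1, 25.9 and 17.6 CPM at 96h AEL, against 2.94, 2.36 and 8.61 CPM at 72h AEL (2.02 ± 0.57, adjusted p = 0.0417), although it lost the call without each of the 96h AEL replicates. *pk*, *dgo*, *in*, *dsh* and *ft* were called with TMM only. *mwh*, an effector of hair formation in the wing, was lower after the correction only (-1.29, length-corrected -2.05, adjusted p = 0.0197). Of these 10 calls, 6 held without 96h AEL replicate A, 1 without replicate B and 2 with 72h AEL replicate C alone.

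**Figure D5:**
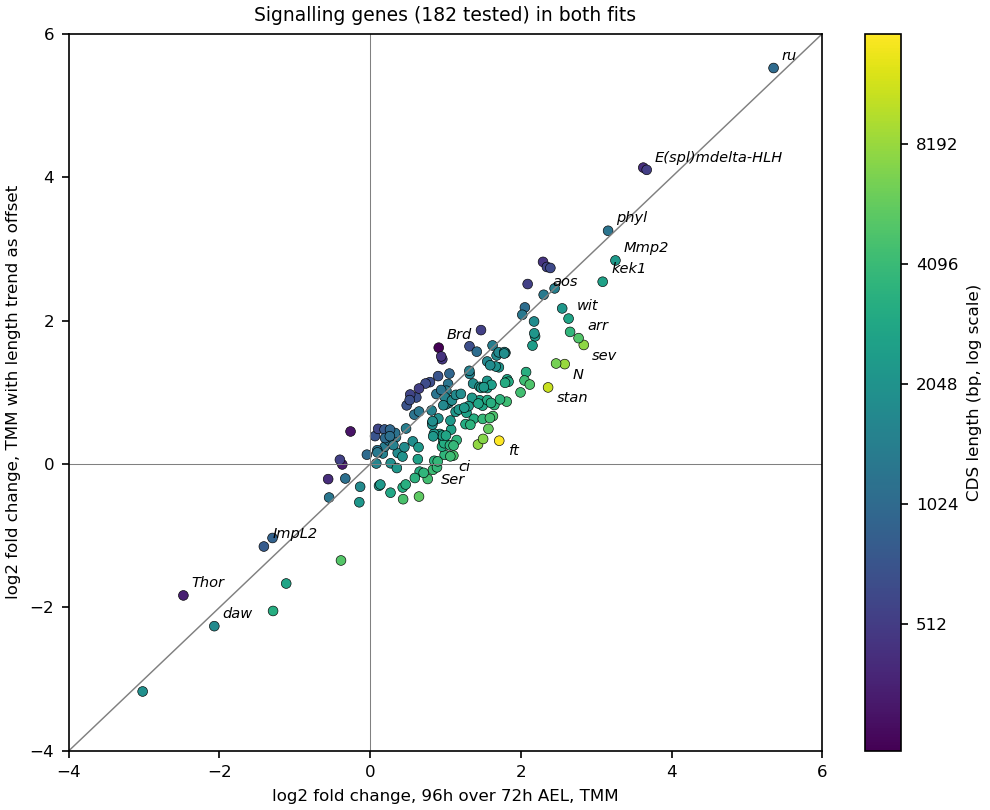
Log2 fold change of 96h over 72h AEL for the 182 tested signalling genes with TMM (horizontal axis) and with the length trend of each library removed (vertical axis), with the CDS length in bp as colour. Genes with long coding sequences such as *ft* (1.71 and 0.32), *ci* (1.06 and 0.11) and *N* (2.58 and 1.39) lie under the diagonal, and short genes such as *Brd* (0.91 and 1.62) lie above it.

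Over all signalling lists (214 genes listed, 199 found, 182 tested) 105 genes were higher at 96h AEL and 4 lower, with a median of 1.05, and after the length correction 92 were higher and 6 lower, with a median of 0.75. Among all tested genes 19.4% were higher and 23% lower (length-corrected 15.7% and 25.6%), and in the longest length class 52.1% were higher (length-corrected 17.2%). Of the 109 calls 48 held without 96h AEL replicate A, 12 without replicate B, 105 without replicate C, 96 without 72h AEL replicate C and 36 with 72h AEL replicate C alone. The 12 stable calls were 11 rises (*E(spl)malpha-BFM*, *E(spl)mdelta-HLH*, *Mmp2*, *phl*, *aos*, *arr*, *boi*, *brk*, *sev*, *stan* and *wit*) and the fall of *Thor*. These lists too were written with results of these data known.

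Products of neurons were measured beside the transcription factors. Of 11 tested genes 5 were higher and 1 lower in both fits, with medians of 1.61 and 0.99. The panneuronal gene *elav* had 13.9, 9.48 and 5.03 CPM at 96h AEL, against 0.967, 0.774 and 1.97 CPM at 72h AEL (2.67 ± 0.64, adjusted p = 0.0292), and the call was lost without 96h AEL replicates A or B (2.33 and 2.72). *Appl*, a transmembrane protein gene of neurons, had 22.4, 26.2 and 22 CPM at 96h AEL, against 2.78, 3.03 and 3.56 CPM at 72h AEL (2.80 ± 0.22, adjusted p = 0.0028, length-corrected 2.22). *Appl*, the adhesion genes *CadN* and *Fas2* and the microtubule-associated protein gene *futsch* were stable. *Syt1*, the synaptotagmin gene, fell (-2.03 ± 0.46, adjusted p = 0.0265), with 1.39, 1.55 and 2.73 CPM at 96h AEL, against 7.01, 6.83 and 7.98 CPM at 72h AEL. Another gene of synaptic transmission, *brp*, overlapped between the stages. The call of *Syt1* was lost without 96h AEL replicates A or B or 72h AEL replicate C, at log2 fold changes of -1.92 to -1.83, and 4 of the 6 calls of this list held with 72h AEL replicate C alone.

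Over all tested genes, the 10 largest rises that reached 10 CPM and did not overlap were *Lsp2*, *Fbp2*, *gl*, *ru*, *scrt*, *lz*, *twit*, FBgn0029082, *Obp56e* and *rst*. *scrt* (scratch), a zinc finger gene of neurons, had 9.34, 13.9 and 14 CPM at 96h AEL, against 0.403, 0.317 and 0.26 CPM at 72h AEL (5.24 ± 0.43, adjusted p = 0.0028, length-corrected 4.95). *rst* (roughest), an adhesion gene of the immunoglobulin family that sorts cells in the pupal retina, had 87, 90.5 and 69.6 CPM at 96h AEL, against 2.1, 2.75 and 5.16 CPM at 72h AEL (4.38 ± 0.41, adjusted p = 0.0038). The gene FBgn0029082, for which no name was found, had 52.8, 56.8 and 43.4 CPM at 96h AEL, against 1.77, 1.58 and 2.49 CPM at 72h AEL (4.56 ± 0.27, adjusted p = 0.0016). The largest fold changes were those of the fat body genes *Lsp2* and *Fbp2*, which were by far highest in 96h AEL replicate C. *Lsp2* had 16.3, 10.2 and 346 CPM at 96h AEL, against 0.605, 0.387 and 0.742 CPM at 72h AEL, and *Fbp2* had 16.6, 38.4 and 236 CPM at 96h AEL, against 0.887, 0.774 and 0.853 CPM at 72h AEL. Both genes are members of the fat body marker list, so its sum is no separate measure beside them. Other called members of that list went both ways. *Lsp1alpha* rose (3.37), while *Apoltp* and *apolpp* fell (-3.33 and -3.11) and were the stable calls of the list. *Lsp2* lost the call after the length correction (adjusted p = 0.0608) and without 96h AEL replicates A or B or 72h AEL replicates B or C, and *Fbp2* without 96h AEL replicate B or 72h AEL replicate C.

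The 10 largest falls were *CG17127*, *Cpr64Ab*, *CG33270*, *CG4229*, *TwdlC*, *CG13048*, *CG33263*, *CG4116*, *CG12523* and *Cpr5C*, and 3 of them are genes of cuticle proteins by name. *Cpr5C* had 0.0228, 0.093 and 0.251 CPM at 96h AEL, against 301, 302 and 335 CPM at 72h AEL (-11.50 ± 0.76, adjusted p = 0.002), and *TwdlC*, of the Tweedle family, had 0.0685, 0.403 and 0.251 CPM at 96h AEL, against 464, 455 and 1475 CPM at 72h AEL (-12.06 ± 1.04, adjusted p = 0.0032). Where no 96h AEL library had more than 3 counts, the difference is a lower bound, taken against a floor of 3 counts per library. *CG17127* was at least 2213-fold lower at 96h AEL and *CG12523* at least 2116-fold lower, with 0.0685, 0.062 and 0.108 CPM at 96h AEL, against 112, 109 and 345 CPM at 72h AEL. *Cpr64Ab* was at least 549.7-fold lower, *CG13048* at least 435-fold and *CG4116* at least 365-fold, taken from the mean of 72h AEL. At 72h AEL *Cpr64Ab* had 99.4, 96.2 and 20.6 CPM, *CG13048* 81.2, 77 and 14.5 CPM and *CG4116* 62.9, 58.3 and 18 CPM. Against replicate C the bounds of these genes are therefore smaller. *CG33263* and *CG33270* were high in replicates A and B of 72h AEL only. *CG33263* had 0, 0 and 0.0359 CPM at 96h AEL, against 83.6, 83.5 and 0.408 CPM at 72h AEL, and both calls were lost without any 1 of the 96h AEL replicates.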

How the data were processed

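RNA from pooled eye-antennal discs was sequenced as 50 bp single-end reads. For each gene of FlyBase r5.55 the authors took the longest CDS, mapped the reads to it with Bowtie2 and made the deposited counts with SAMtools 0.1.19, as whole reads per gene without normalization. Strand was not used, and reads with equal matches in similar copies are assigned to a single copy, so counts of paralogs (*E(spl)*, *B-H1* and *B-H2*, *salm* and *salr*, *ac* and *sc*, *Doc*, *dan* and *danr*) are uncertain gene by gene. The deposited cluster assignments were not used.

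All 6 libraries of 96h and 72h AEL were used, with replicates A and B of 72h AEL summed. Counts were scaled by TMM and tested with edgeR 4.0.16 in R 4.3.3 (quasi-likelihood test, two-sided, Benjamini-Hochberg adjustment over all tested genes, threshold 0.05). Values after ± are standard errors, computed as the absolute log2 fold change over the square root of F. Genes at or under 147.7 normalized counts in every sample were left out, a threshold found over 100 values between 1 and 200 by the highest Jaccard index between replicates (loess span 0.3), as HTSFilter does. The length-corrected fit used each library's lowess trend (span 0.3) of log2 ratio on log CDS length as an offset. CPM are based on TMM over the 6 libraries. The fits were tested on simulated counts with 200 changed genes. Of 13676 gene IDs, 13406 were named from a reference table, 5 from the supplementary tables and 265 not at all.

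The stages, the gene lists (484 symbols in 36 lists, 452 found) and the tests were chosen with earlier results of these data known. Named genes are the core members of each list, the largest called rise and fall of each list at 10 CPM or more, the 10 largest rises and falls over all genes and the 5 largest against the length trend and among transcription factors. Further list members were named after their values were seen. Alternatives were DESeq2 1.42.0, its size factors, library size only, other filters and thresholds, TMM in 10 length classes, A and B as separate samples, all stages in 1 fit, a replicate block and each library left out in turn. The use of 72h AEL replicate C alone was added after the data were seen, as was the set of calls named stable. Figures were drawn with matplotlib 3.10.9 in Python 3.11.15, with pandas 2.3.3 and numpy 2.4.6. Promoter sequences were not analysed here.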

Additional observations from a re-analysis of the deposited data

How the results depend on the processing

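The number of genes called depended on the libraries and on the threshold. It was 5729 with replicates A and B of 72h AEL as separate samples (2792 higher and 2937 lower), 595 at an adjusted p-value under 0.01, and 1115 with 72h AEL replicate C alone, an alternative chosen after seeing the data. With each library left out in turn it ran from 645 (without 96h AEL replicate B) to 4001 (without 96h AEL replicate C), and in the length-corrected fit from 786 (without 96h AEL replicate B) to 3630, with 1580 for 72h AEL replicate C alone. Other alternatives stayed within 1.5 times the 3747 calls, among them DESeq2 with 5155, library size only with 4446 and TMM in 10 length classes with 3840. The replicate letters did not pair the libraries (correlations of the deviations for the same letter -0.435, 0.186 and -0.320), and a replicate block over 6 libraries gave 3384 calls. With library size only, the median of the shortest length class was -0.19 and that of the longest 1.35. Over the leave-one-out fits these medians ran from -0.88 to -0.60 and from 0.76 to 1.10.

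For 131 named and tested genes, 17 alternatives gave 2219 values, of which 1890 kept direction and side of the threshold, 222 kept the direction and lost the call, 69 gained a call and 38, of 12 genes, turned the direction. Of these genes only *Max* was called with TMM (-0.43), and it had 0.082 with the length correction, 0.10 with TMM in 10 length classes and 0.051 with library size only. Values with the length correction and with TMM in 10 length classes were -0.024 and -0.049 for *ey*, -0.081 and -0.12 for *Ser*, -0.046 and -0.15 for *dome*, -0.27 and -0.18 for *ftz-f1*, -0.38 and -0.28 for *pros*, -0.26 and -0.21 for *SoxN*, and 0.039 and 0.061 for *crc*. TMM in 10 length classes turned *D* to 0.013. Library size only gave 0.34 for *D*, 0.40 for *al*, 0.39 for *crc*, 0.31 for *htl* and 0.42 for *pnr*. The value of *pnr*, -0.019 with TMM, was 0.017 with no filter, 0.00034 with filterByExpr, 0.15 with A and B of 72h AEL separate and 0.19 with the replicate block. With 72h AEL replicate C alone *SoxN* had -0.16 and *al* 2.63. Over the leave-one-out fits *D* ran from -0.23 to 0.057, *SoxN* from -0.072 to 0.49, *al* from -1.10 to 0.020, *crc* from -0.12 to 0.028, *htl* from -0.22 to 0.19 and *pnr* from -0.13 to 0.50. The cause of these changes was not tested. With 2 samples at 72h AEL, 2 against 2 where a 96h AEL library is left out, and 1 sample at 72h AEL where replicate C is left out or used alone, a lost call does not show that a gene did not differ, and counting error limits genes under about 10 CPM.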

Other observations

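Some gene families that none of the lists covered fell together in mid L3 discs, and others did not. Of 70 tested mitochondrial ribosomal protein genes 55 were lower with TMM, 41 of them in both fits. Of 32 tested complex I subunit genes 27 were lower, 25 of them in both fits. None of 34 tested proteasome subunit genes was called with TMM. Of 78 tested cytoplasmic ribosomal protein genes 10 were lower, 2 of them in both fits. The families were picked by symbol after the values were seen, so their counts are given without a test of the family. For each family, the shares of all tested genes to set beside it were 23% lower and 19.4% higher (length-corrected 25.6% and 15.7%). In the shortest length class 37.9% of genes were lower with TMM and 28.8% after the correction. Of 69 genes of the Cpr family of cuticular proteins in the count table, 46 were tested, and 42 were lower and 3 higher at 96h AEL in both fits, with a median log2 fold change of -5.10 (length-corrected -4.57). Their summed level was 368, 466 and 441 CPM at 96h AEL, against 10474, 10430 and 10090 CPM at 72h AEL. All 20 tested Tweedle genes, another cuticle family, were lower in both fits, with a median of -7.54 and a sum of 8.20, 20.5 and 15.1 CPM at 96h AEL, against 3034, 3006 and 3850 CPM at 72h AEL. With such low sums at 96h AEL, most of them could pass the filter only through their level at 72h AEL. That all were lower therefore largely follows from the filter, and the same holds for Cpr genes that were low at 96h AEL. Replicate C of 72h AEL was about as high as replicates A and B for the Cpr family and higher for the Tweedle family. This library had the lowest midgut marker sum of its stage (1152 CPM) but the highest muscle and hemocyte sums (19778 and 1561 CPM). The part of other tissues in the falls of these families was not tested.

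Families of detoxification behaved otherwise among the libraries. The shares over all tested genes were 23% lower and 19.4% higher (length-corrected 25.6% and 15.7%). Of 52 tested cytochrome P450 genes 29 were lower and 2 higher (length-corrected 31 lower and 2 higher), with a sum of 2438, 2577 and 2585 CPM at 96h AEL, against 5325, 5273 and 3315 CPM at 72h AEL. Of 32 tested glutathione S-transferase genes 15 were lower and 1 higher (length-corrected 13 and 4), with a sum of 1421, 1424 and 1794 CPM at 96h AEL, against 4202, 4178 and 2165 CPM at 72h AEL. In both families the high sums were those of replicates A and B of 72h AEL, the libraries with the midgut markers, and with replicate C alone 7 P450 and 3 transferase genes were called lower. The part of midgut tissue in these differences was not tested.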
